A study of Mus musculus with 31 samples.

Results

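The cytosolic ribosomal proteins build the ribosome that translates nuclear genes. They were taken from the deposited table as every row whose symbol starts with Rpl or Rps and a digit, or is Rplp0, Rplp1, Rplp2 or Rpsa, leaving out symbols with -ps (pseudogenes) and the Rps6k and Rps19bp genes. The rule found 93 rows of 55487, of which 87 passed the filter on low counts and were tested. They fall into 77 core members (43 of the large subunit, 31 of the small subunit and 3 of the stalk), 11 paralogs and 5 other symbols. Coordinates below are those of GENCODE M21 on GRCm38, which holds all 93. Bulk mRNA was sequenced from kidneys of male B6 mice, 1 library per mouse: 8 wild type (WT) and 8 HET mice received cisplatin, and 8 WT and 7 HET mice received phosphate-buffered saline (PBS). HET is the labels' name for the altered genotype at Nbl1, a gene for a secreted protein that blocks bone morphogenetic proteins. No source used here gives the kind of allele or the dose of cisplatin. Cisplatin, a chemotherapy drug whose platinum atom binds DNA, is toxic to the kidney tubule. Treatment ran for 4 weeks from the age of 8 weeks, and kidneys were taken 3 days after it at a stated age of 11 weeks, although treatment from that start would have ended later.

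Ribosomal proteins are made in matched amounts, since each ribosome holds 1 copy of nearly all of them, and their mRNAs are among the abundant mRNAs of most tissues, kidney included. Most of these mRNAs begin with a C followed by a run of pyrimidines, the terminal oligopyrimidine (TOP) tract, through which the kinase mTOR and the protein Larp1 set how strongly they are translated. Free ribosomal proteins of the large subunit, above all Rpl5 and Rpl11 bound to 5S ribosomal RNA, hold back Mdm2, the protein that marks p53 for destruction. DNA damage of the kind cisplatin makes activates p53, and the paralog Rps27l is a known p53 target gene.

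The sequence around the start of transcription is shown first, because the pyrimidine tract is the feature these mRNAs are known for. RefSeq promoter sequences on GRCm38.p6 were matched for 68 of the 93 members, 57 of them core members. The run searched for was a C followed by C or T, at least 8 bases long in all, lying within 30 bases either side of the annotated start. It was present in 31 of 57 core members (54.4%), in 8 of 16 other TOP mRNAs (50%), in 17 of 69 mitochondrial ribosomal protein genes (24.6%) and in 20.6% of all 27025 genes of the promoter table. Each line below gives 50 bases before and 30 bases after the start on the gene's own strand, with the run in capitals. The first 4 genes carry the run and rose, and Rpl7a and Rpl28 carry it and did not pass the test. Rps19 and Rps28 rose without it in the stretch searched. A run of this kind precedes another annotated start of Rps19, outside the stretch searched.
Rps18: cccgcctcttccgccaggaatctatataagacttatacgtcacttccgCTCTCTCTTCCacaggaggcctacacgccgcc
Rpl15: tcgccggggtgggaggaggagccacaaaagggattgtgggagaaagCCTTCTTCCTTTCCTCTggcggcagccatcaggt
Rps6: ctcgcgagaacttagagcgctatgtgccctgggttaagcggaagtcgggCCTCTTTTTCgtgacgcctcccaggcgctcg
Rps27: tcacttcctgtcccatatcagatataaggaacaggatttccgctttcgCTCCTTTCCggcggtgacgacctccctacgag
Rpl7a: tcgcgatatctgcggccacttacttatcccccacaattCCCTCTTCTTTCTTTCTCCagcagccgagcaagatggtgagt
Rpl28: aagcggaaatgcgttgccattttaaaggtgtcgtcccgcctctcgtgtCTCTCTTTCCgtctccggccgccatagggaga
Rps19: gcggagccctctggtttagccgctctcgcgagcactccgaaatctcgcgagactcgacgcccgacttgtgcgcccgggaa
Rps28: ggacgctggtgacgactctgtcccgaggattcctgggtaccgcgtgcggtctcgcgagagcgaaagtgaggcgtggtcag
These windows lie at Rps18 (chr17:33955636-33955715, minus strand), Rpl15 (chr14:18270957-18271036, minus strand), Rps6 (chr4:86857338-86857417, minus strand), Rps27 (chr3:90213619-90213698, minus strand), Rpl7a (chr2:26910757-26910836, plus strand), Rpl28 (chr7:4792915-4792994, plus strand), Rps19 (chr7:24884542-24884621, plus strand), the first of 3 annotated starts, and Rps28 (chr17:33824533-33824612, minus strand).

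The responses of core members with and without the run are given side by side, with no test of the difference. In WT, 26 of the 31 core members with the run were higher under cisplatin at a median log2 fold change of 0.36, and 25 of the 26 without it were higher at a median of 0.40. These calls were made under TMM scaling (described below), with 33.6% of all tested genes called higher. Scaled to library totals instead, all 77 core members were higher, with or without the run. This grouping rests on the annotated starts and on the stretch searched. Some members counted as without the run have a stretch of C and T at the edge of that window or beyond it. Members without the run are therefore not shown to lack a TOP tract. Both other motifs counted in the 300-base promoters were picked after the sequences had been looked at. The letters CCGGAAG, on either strand, were present in 42.1% of core members and in 9.93% of all genes of the table, and TCTCGCGA, on either strand, in 19.3% and 1.13%. A match is a description of the letters in this window, not a site. No overlap between the motifs was removed.

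Library totals ran from 29.2 to 37.3 M counts in the PBS groups and from 24.7 to 31.9 M counts in the cisplatin groups. WT cisplatin 6 and HET cisplatin 6 stood apart, nearest to the PBS libraries on the first principal component, and 5 libraries read Nbl1 against their genotype label: HET PBS 1 and 6, HET cisplatin 3 and 4, and WT PBS 6. Nbl1 was at 3.71 CPM in the library labelled WT PBS 6, within the range of the HET PBS group, while the other WT PBS libraries held 5.83 to 7.9 CPM, and at 0.106 to 0.434 CPM in the 2 HET PBS and 0.861 to 1.08 CPM in the 2 HET cisplatin libraries, against 3.26 to 4.2 CPM and 4.68 to 13.9 CPM in the other libraries of those groups. WT cisplatin 6 also lay within the HET range of its treatment, at 10.7 CPM, with 18.1 to 26.2 CPM in the other WT cisplatin libraries. CPM are counts relative to library size after TMM scaling, which assumes that most genes do not change. The cisplatin response of the members is given with and without these libraries below. All 8 HET cisplatin mice are numbered in the 600s, while the other groups also hold mice outside that range, so number range and group are partly confounded.

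The family as a whole took a larger share of the kidney mRNA after cisplatin in both genotypes. The 93 rows held 1.04% to 1.13% of all counts (median 1.08%) in WT PBS and 1.68% to 1.96% (median 1.82%) in WT cisplatin. The HET groups read 1.04% to 1.13% (median 1.08%) under PBS and 1.74% to 2.06% (median 1.79%) under cisplatin. Every cisplatin library lay above every PBS library in both genotypes. The group means were 1.08% ± 0.03 (SD, n = 8) and 1.82% ± 0.08 (SD, n = 8) in WT, a ratio of 1.68, and 1.08% ± 0.03 (SD, n = 7) and 1.84% ± 0.12 (SD, n = 8) in HET, a ratio of 1.70. WT cisplatin 6 held 1.83% and HET cisplatin 6 held 1.74%, both within the range of their groups.

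How large the rise reads depends on what the members are set against. As a share of the deposited TPM (a unit that corrects for transcript length), the ratio of cisplatin to PBS was 1.77 in WT and 1.82 in HET. Mitochondrial transcripts took 7.96% to 8.96% of the counts in the PBS libraries and 2.53% to 5.12% in the cisplatin libraries, and with these left out of the total the ratios were 1.6 and 1.62. As a sum of TMM-scaled CPM the ratios were 1.28 and 1.29, with WT means of 12417 ± 512 (SD, n = 8) under PBS and 15893 ± 697 (SD, n = 8) under cisplatin. The plot of the summed family by mouse gives these measures side by side. In bulk tissue, fewer cells of a type and less RNA per cell cannot be told apart, and neither can more ribosomal protein mRNA per cell and less of other mRNA.

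**Figure D1:**
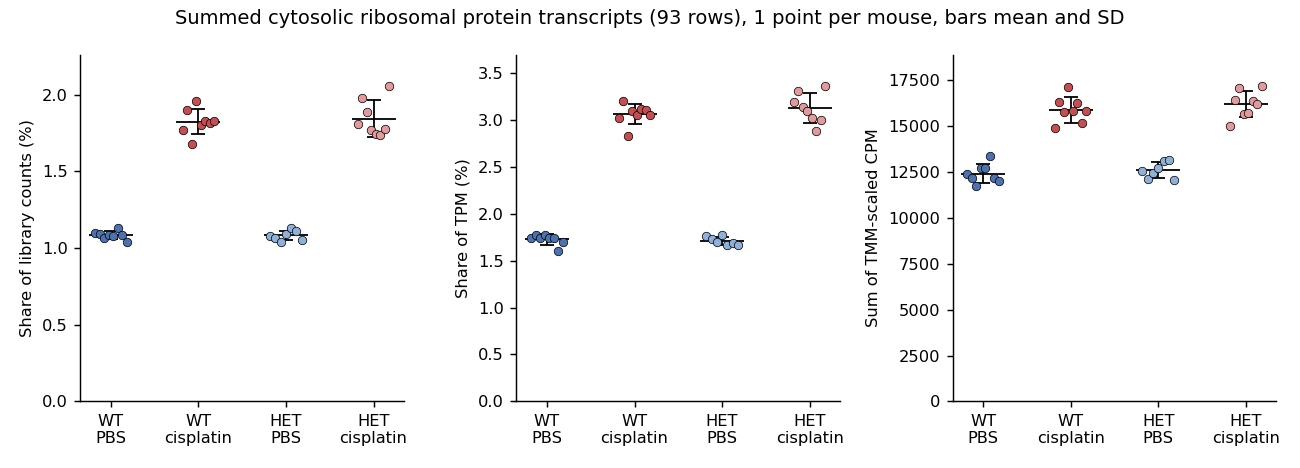
Each point is 1 mouse, and bars give mean and SD for the 4 groups. The panels show the summed cytosolic ribosomal protein rows as a percent of library counts, as a percent of TPM and as a sum of TMM-scaled CPM, all axes starting at 0. In all 3 panels the cisplatin mice lie above the PBS mice, at 1.68% to 2.06% of counts against 1.04% to 1.13%.

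In summed counts, which abundant members weigh on most, the rise differed between the 3 parts of the ribosome. Gene by gene the parts lay closer together. Under TMM the median log2 fold changes in WT were 0.44 for the stalk, 0.39 for the small subunit and 0.35 for the large subunit. In HET they were 0.43, 0.39 and 0.38. The stalk proteins' share of counts rose by a ratio of 1.96 in WT and 1.93 in HET, the small subunit's by 1.74 and 1.76, and the large subunit's by 1.61 and 1.64. The ratio of large to small subunit counts, which no scaling of a library changes, was 1.28 to 1.32 in the PBS libraries and 1.18 to 1.23 in the cisplatin libraries, with no overlap. It was 1.23 in both WT cisplatin 6 and HET cisplatin 6, near the top of the cisplatin range. Rows with -ps symbols, kept out of the rule, held 0.0449% ± 0.0012 (SD, n = 8) of the counts under PBS and 0.0624% ± 0.0036 (SD, n = 8) under cisplatin in WT, a ratio of 1.39.

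Gene by gene, cisplatin raised most of the family. In WT, 73 of the 87 tested members were higher by edgeR's quasi-likelihood test with Benjamini-Hochberg adjustment over all 19268 tested genes (threshold 0.05), against 33.6% of all tested genes, and 6 were lower, against 29.6%. In HET, 69 were higher (31% of all genes) and 5 lower (28.0%). In either direction 63.2% of all tested genes passed in WT and 59.0% in HET. Of the 77 core members, 70 rose, 2 fell and 5 did not pass in WT, and 67, 2 and 8 did so in HET. The median log2 fold change of the core members was 0.38 in both genotypes, beside a median of 0.06 over all tested genes in each. In CPM, 61 of the 87 members in WT and 62 in HET had every cisplatin library above every PBS library, against 14.4% and 11.0% of all tested genes, and 3 and 2 had every cisplatin library below, against 17.4% and 14.9%.

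These directions rest in part on the scaling. With library totals in place of TMM, the median of all tested genes moved up by 0.39 in WT and 0.40 in HET, all 77 core members were higher in both genotypes, and 82 members were higher and 3 lower in WT (61.4% and 14.9% of all genes), with 83 and 2 in HET (62.2% and 12.5%). Without WT cisplatin 6 and HET cisplatin 6, 70 members were higher and 8 lower in WT (34.6% and 30.6% of all genes tested in that fit), and 68 and 6 in HET (32.3% and 29.3%). With the 5 libraries of doubtful Nbl1 reading left out, the counts were 72 and 6 (32.3% and 28.6%), and 68 and 3 (27.1% and 25.2%). With WT cisplatin 6 left out beside these 5, they were 69 and 7 (32.5% and 29.5%), and 68 and 3 (27.5% and 25.4%). Among mice numbered in the 600s alone, 65 were higher and 5 lower in WT (26.5% and 24.5%), and 67 and 3 in HET (26.3% and 24.3%). Of the core members, 65 held fractional counts in most libraries. No source used here names the tool that gave them, and how reads shared between a member and its pseudogenes were treated is uncertain.

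**Figure D2:**
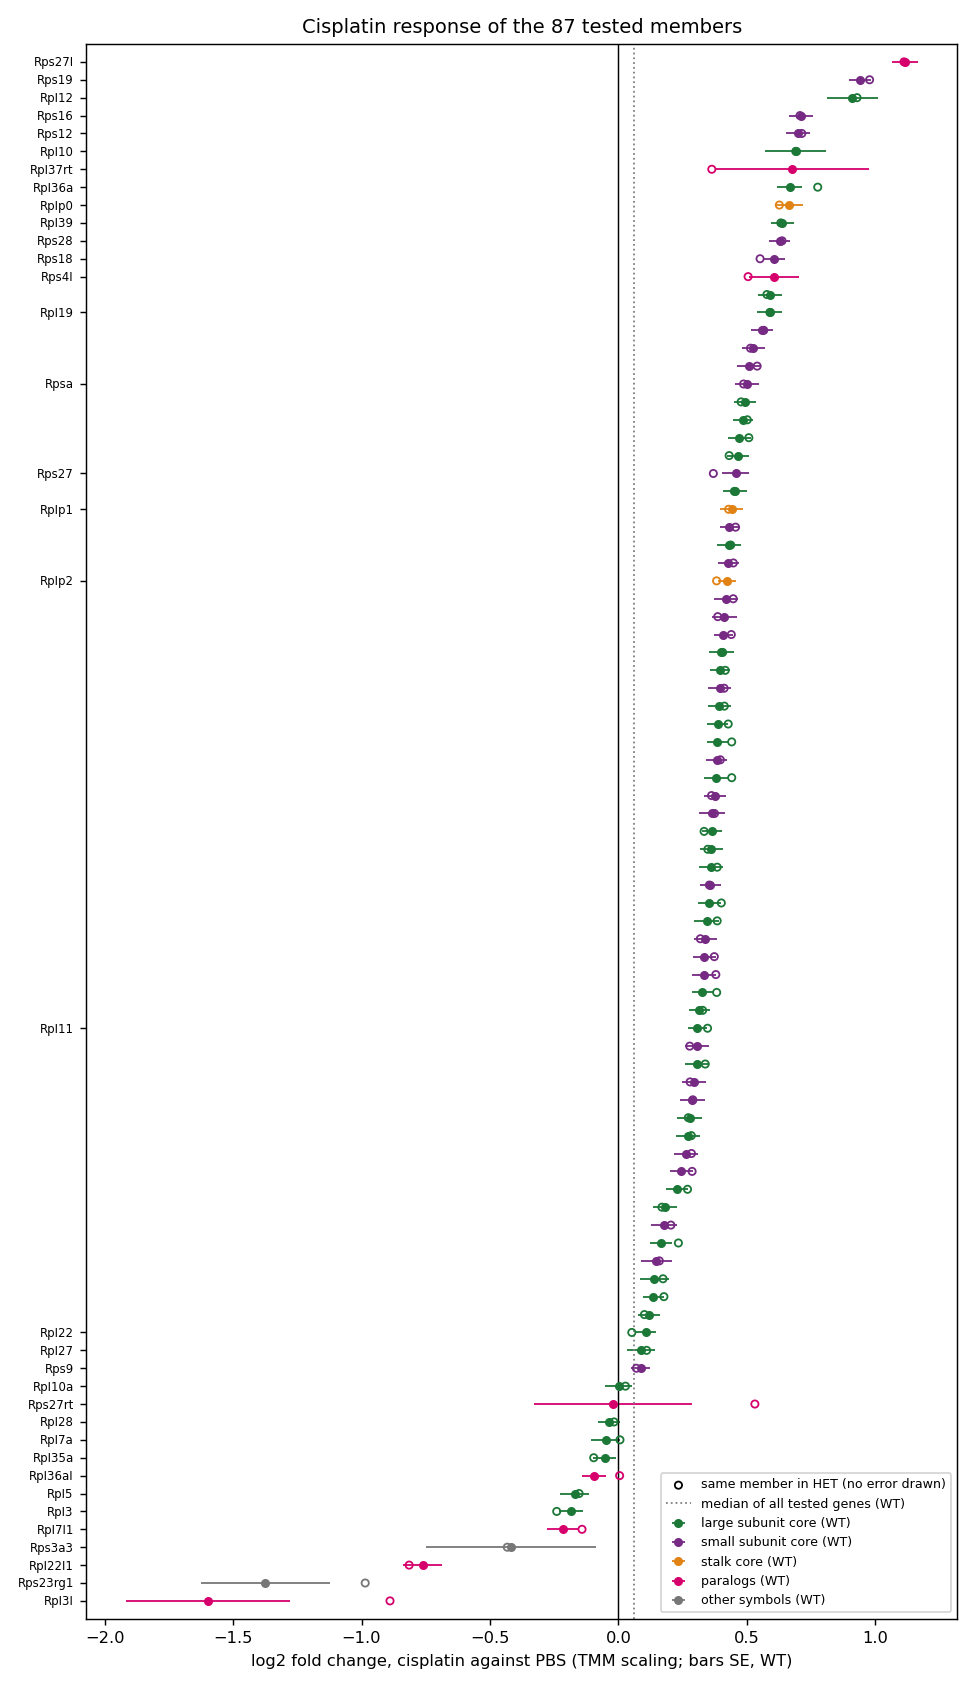
Filled points are log2 fold changes of cisplatin against PBS in WT with their SE, open points the same member in HET, for the 87 tested members in order of the WT value. Colours give the class, names are printed for described members only, and the dotted line is the median of all tested genes (0.06). Most members lie between 0.1 and 0.7, Rps27l stands highest at 1.11, and Rpl22l1, Rps23rg1 and Rpl3l lowest.

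All 31 small subunit members were called higher in WT and 30 of 31 in HET, at median log2 fold changes of 0.39 in both. Of all tested genes 33.6% were higher in WT and 31% in HET. The WT count includes Rps9, whose call was lost in other fits given below. Rps19 (ENSMUSG00000040952, chr7:24884371-24889806, plus strand), a small subunit protein whose human gene is the one most often mutated in Diamond-Blackfan anemia, rose the most. It read 116 to 128 CPM (median 123) in WT PBS and 213 to 258 CPM (median 234) in WT cisplatin. In HET mice it read 116 to 133 CPM (median 120.2) under PBS and 226 to 260.0 CPM (median 241) under cisplatin. The level nearly doubled and the groups did not overlap, at a log2 fold change of 0.94 (adjusted p = 4.21e-18, SE 0.04) in WT and 0.98 (adjusted p = 5.89e-18, SE 0.04) in HET.

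Other small subunit members followed with smaller rises. Rps16 (ENSMUSG00000037563, chr7:28350652-28353155, plus strand) read 90.3 to 103 CPM (median 96.5) in WT PBS and 145 to 181 CPM (median 157) in WT cisplatin, a log2 fold change of 0.71 (adjusted p = 4.72e-14, SE 0.05). Rps12 (ENSMUSG00000061983, chr10:23785183-23787275, minus strand) read 116 to 132 CPM (median 123) in WT PBS and 177 to 226 CPM (median 199) in WT cisplatin, a log2 fold change of 0.70 (adjusted p = 8.38e-14, SE 0.05). Neither overlapped between treatments in WT, and their HET log2 fold changes were 0.71 and 0.71. Rps28 rose by a log2 fold change of 0.63 (adjusted p = 3.46e-14, SE 0.04) and Rps18, a protein of the small subunit's head, by 0.61 (adjusted p = 6.84e-14, SE 0.04) in WT. Rpsa, also known as the laminin receptor precursor, read 246 to 298 CPM (median 269) in WT PBS and 340.5 to 419.7 CPM (median 378) in WT cisplatin, a log2 fold change of 0.50 (adjusted p = 1.34e-10, SE 0.05). Rps9 stood at the other end, with 185 to 211 CPM (median 193) in WT PBS and 195 to 224 CPM (median 204) in WT cisplatin, overlapping groups and log2 fold changes of 0.09 (adjusted p = 0.0461, SE 0.04) in WT and 0.07 (adjusted p = 0.126, SE 0.04) in HET. Its WT call was lost without WT cisplatin 2, 5 or 6 or WT PBS 1, 2, 3, 7 or 8 (adjusted p = 0.0672 to 0.104), under DESeq2 (0.0931), under RLE scaling (0.137) and in 6 other alternatives (0.0660 to 0.404).

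The stalk of the large subunit, Rplp0 with dimers of Rplp1 and Rplp2, recruits the translation factors that hydrolyse GTP, and all 3 of its mRNAs rose. Rplp0 (ENSMUSG00000067274, chr5:115559467-115563727, plus strand) is the base of the stalk. It read 340.0 to 399 CPM (median 364) in WT PBS and 508 to 667 CPM (median 571) in WT cisplatin. In HET mice it read 351 to 412 CPM (median 372) under PBS and 522 to 661 CPM (median 575) under cisplatin. All cisplatin libraries exceeded all PBS libraries, with log2 fold changes of 0.67 (adjusted p = 4.99e-12, SE 0.05) and 0.63 (adjusted p = 5.91e-11, SE 0.06). Rplp1 rose by 0.44 (adjusted p = 4.29e-10, SE 0.04) and Rplp2 by 0.42 (adjusted p = 5.52e-12, SE 0.03) in WT, each without overlap.

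Large subunit members were more mixed, with 36 higher, 2 lower and 5 not passing in WT and 34, 2 and 7 in HET. The shares of all tested genes were 33.6% higher and 29.6% lower in WT and 31% and 28.0% in HET. Rpl12 (ENSMUSG00000038900, chr2:32961559-32965345, plus strand), which binds the ribosomal RNA beside the stalk base, had the largest rise of the class but the lowest level of all core members. It read 6.77 to 9.82 CPM (median 7.64) in WT PBS and 11.5 to 18 CPM (median 15.3) in WT cisplatin, without overlap, and its log2 fold changes were 0.91 (adjusted p = 2.09e-09, SE 0.10) in WT and 0.93 (adjusted p = 4.36e-09, SE 0.10) in HET. All of its values in the deposited table were fractional, and the reads it shares with copies were not measured. Rpl10, which is placed late in the maturation of the large subunit, rose by 0.69 (adjusted p = 7.2e-06, SE 0.12), and Rpl39, which lines the exit tunnel, by 0.64 (adjusted p = 1.53e-13, SE 0.04) in WT. Rpl19, which forms a bridge to the small subunit, read 202 to 231 CPM (median 216) in WT PBS and 279 to 367 CPM (median 324) in WT cisplatin, a log2 fold change of 0.59 (adjusted p = 4.07e-12, SE 0.05). Those 3 did not overlap between treatments in WT, and Rpl10 did in HET.

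A few core members of the large subunit did not share the rise under TMM scaling. Rpl3 (ENSMUSG00000060036, chr15:80077791-80091868, minus strand), which reaches close to the peptidyl transferase centre, read 243 to 269 CPM (median 255) in WT PBS and 209 to 276 CPM (median 219) in WT cisplatin. In HET mice it read 249 to 281 CPM (median 269) under PBS and 213 to 238 CPM (median 225) under cisplatin. The HET groups did not overlap, and the WT groups overlapped through WT cisplatin 6 at 276 CPM. Its log2 fold changes were −0.18 (adjusted p = 0.00102, SE 0.05) in WT and −0.24 (adjusted p = 7.76e-05, SE 0.05) in HET, but 0.21 and 0.16, both past the threshold, with library totals. The 5 core members that passed in neither genotype under TMM scaling with edgeR were Rpl27, Rpl10a, Rpl28, Rpl7a and Rpl35a. Other planned fits called Rpl35a lower in HET, at −0.11 (adjusted p = 0.0388) by DESeq2, −0.12 (0.0240) by limma voom and −0.11 (0.0464) under RLE scaling, and limma voom called Rpl7a lower in WT, at −0.09 (0.0479). Rpl7a, for instance, read 278 to 314 CPM (median 294) in WT PBS and 260.2 to 366 CPM (median 270.2) in WT cisplatin, a log2 fold change of −0.05 (adjusted p = 0.465, SE 0.06), which became −0.11 (adjusted p = 0.0328) without WT cisplatin 6. Rpl28 read 151 to 176 CPM (median 167) in WT PBS and 151 to 169 CPM (median 162) in WT cisplatin, a log2 fold change of −0.04 (adjusted p = 0.482, SE 0.04). With library totals all 5 were higher in both genotypes, and a p above the threshold under TMM does not show that they did not change.

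Rpl5 and Rpl11 are taken up together with 5S ribosomal RNA as 1 particle, the 5S RNP, and they moved apart. Rpl11 (ENSMUSG00000059291, chr4:136028265-136053428, minus strand) read 129.9 to 146 CPM (median 134) in WT PBS and 158 to 176 CPM (median 169) in WT cisplatin, without overlap, and rose by a log2 fold change of 0.31 (adjusted p = 1.76e-08, SE 0.04) in WT and 0.35 (adjusted p = 4.46e-09, SE 0.04) in HET. Rpl5 (ENSMUSG00000058558, chr5:107900502-107909005, plus strand) read 36 to 47.3 CPM (median 41.6) in WT PBS and 33.9 to 41.4 CPM (median 37.8) in WT cisplatin, with overlap, and its log2 fold changes were −0.17 (adjusted p = 0.0111, SE 0.06) and −0.15 (adjusted p = 0.028, SE 0.06) under TMM but 0.22 and 0.25 with library totals. The call of Rpl5 was lost among mice numbered in the 600s (adjusted p = 0.105 in WT and 0.109 in HET), without the 5 libraries that go against their label (0.0681 in HET), and without any 1 of 6 HET libraries in turn: HET cisplatin 2, 3, 4 and 5 (0.0514 to 0.0638) and HET PBS 3 and 4 (0.0519 and 0.0627). The ratio of the 2 counts within a library, which no scaling changes, does not depend on this choice. It was 0.268 to 0.337 Rpl5 counts per Rpl11 count in WT PBS and 0.199 to 0.245 in WT cisplatin, with 0.283 to 0.342 and 0.200 to 0.244 in HET. Neither genotype overlapped between treatments, and mean log2 ratios differed by −0.48 in WT and −0.50 in HET (two-sided exact permutation test, p = 0.000155 and 0.000311, the smallest these group sizes allow, adjusted p = 0.000311 and 0.000373 over 12 ratio tests). The 6 gene pairs set against each other in this way were chosen after their values had been seen. Of the Rpl5 values 93.5% were fractional, and so were all Rpl11 values. The reads that either shares with copies were not measured.

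**Figure D3:**
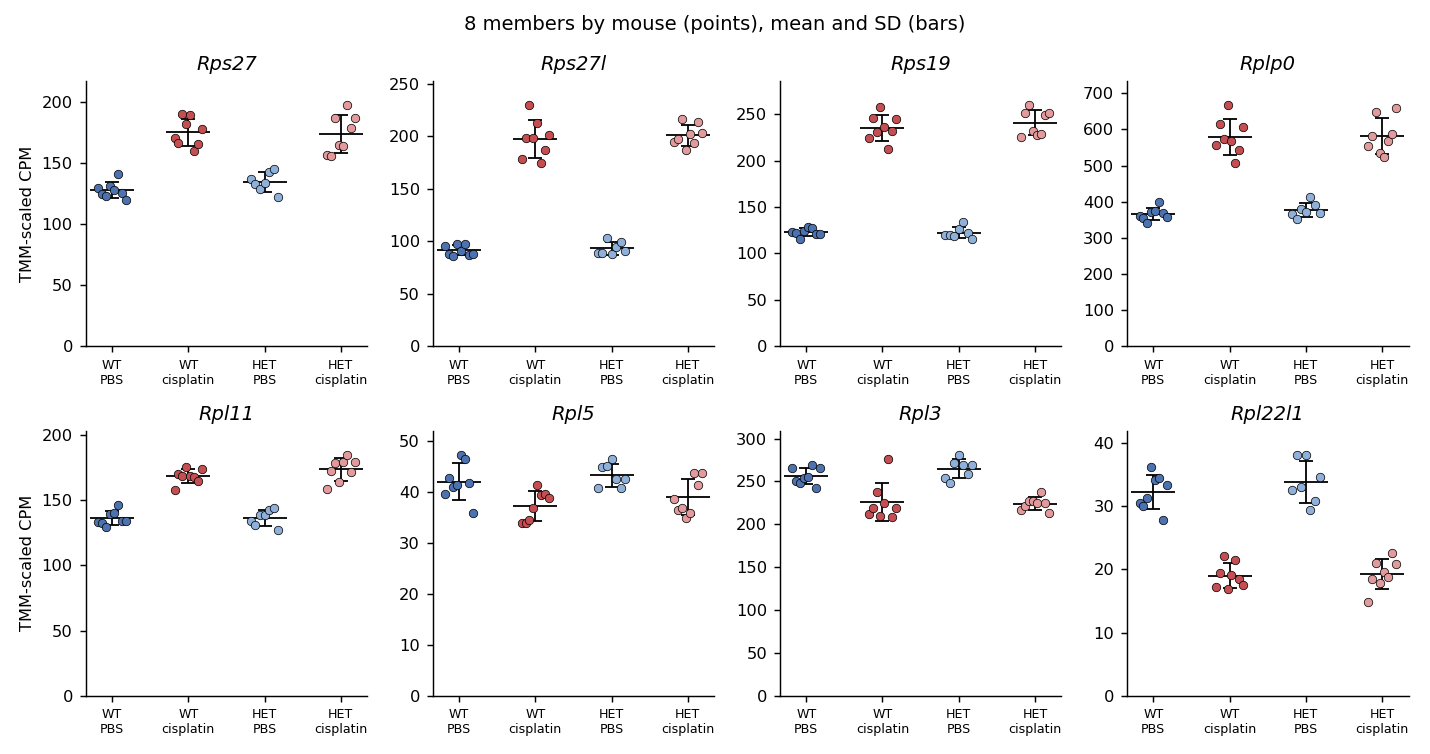
TMM-scaled CPM of 8 members, 1 point per mouse, with mean and SD, on axes that start at 0. Rps27, Rps27l, Rps19, Rplp0 and Rpl11 lie higher in every cisplatin mouse than in every PBS mouse, Rpl22l1 lies lower in every one, and Rpl5 overlaps between treatments. Rpl3 lies lower in every HET cisplatin mouse and, with the exception of 1 mouse at 276 CPM, in every WT cisplatin mouse.

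Setting each core member against the summed counts of the 77 core members asks how the make-up of the family shifted. On this scale 25 core members were higher and 20 lower in WT, and 21 higher and 20 lower in HET, against 15.4% higher and 50.4% lower of all tested genes in WT and 13.3% and 50.1% in HET. The scale holds the core members' own sum constant, so a balance of rises and falls among them is set by it. It also moved the median of all tested genes by −0.35 in WT and −0.36 in HET from that under TMM. Only the order and spread of the core members are read from it. Rps19 gained the most in both genotypes, by 0.59 and 0.61 on the log2 scale, followed by Rpl12 with 0.56 and 0.56. At the low end Rpl3 changed by −0.54 and −0.60, Rpl5 by −0.52 and −0.52, and Rpl35a by −0.41 and −0.46. Of the 10 core members with the largest log2 fold change in WT, 9 were also among the 10 largest in HET, and the 10 smallest were the same genes. Across the 77 core members the WT and HET log2 fold changes, which come from different mice, had a Pearson r of 0.99 and a Spearman rho of 0.97. Members of 1 family share reads and libraries, so this is a description. The WT log2 fold change had r values of −0.08 with log2 TPM in WT PBS, −0.02 with transcript length and 0.00 with the percent of fractional values across the same 77 members.

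**Figure D4:**
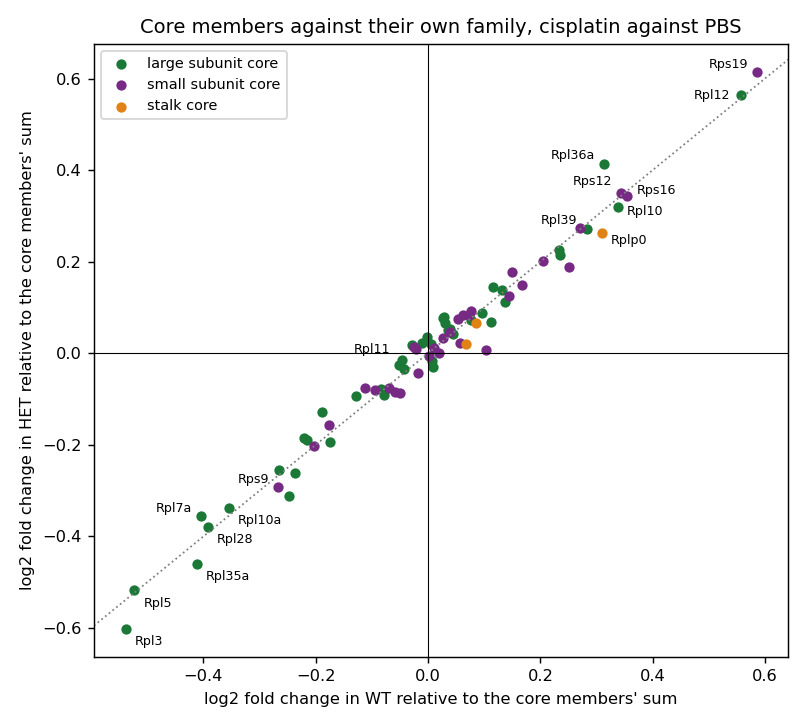
Each point is 1 of the 77 core members, at its log2 fold change of cisplatin against PBS relative to the summed core members, in WT on the x axis and HET on the y axis, with the line of equal values dotted. The points lie along that line from Rpl3 and Rpl5 at the lower left to Rpl12 and Rps19 at the upper right.

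The highest riser of all members in both genotypes was a paralog, Rps27l (ENSMUSG00000036781, chr9:66946086-66949516, plus strand). It read 85.5 to 97.2 CPM (median 89.6) in WT PBS and 175 to 229.8 CPM (median 198) in WT cisplatin. In HET mice it read 87.4 to 103 CPM (median 90.9) under PBS and 187 to 216 CPM (median 199.9) under cisplatin. The treatments did not overlap in either genotype, and the log2 fold changes were 1.11 (adjusted p = 7.7e-18, SE 0.05) and 1.11 (adjusted p = 2.96e-17, SE 0.05). All of its deposited counts were whole numbers. Its core partner Rps27 (ENSMUSG00000090733, chr3:90212522-90213651, minus strand) read 119.7 to 141 CPM (median 127) in WT PBS and 161 to 191 CPM (median 174) in WT cisplatin, and rose by 0.46 (adjusted p = 5.33e-09, SE 0.05) in WT and 0.37 (adjusted p = 6.47e-07, SE 0.05) in HET.

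The coding sequences of Rps27 and Rps27l are shown because their likeness bears on whether reads can be told apart. Both hold 252 bases in GENCODE M21, of which 192 are identical (76.2%), and the longest identical stretch is 11 bases. Capitals mark the 60 bases that differ.
Rps27: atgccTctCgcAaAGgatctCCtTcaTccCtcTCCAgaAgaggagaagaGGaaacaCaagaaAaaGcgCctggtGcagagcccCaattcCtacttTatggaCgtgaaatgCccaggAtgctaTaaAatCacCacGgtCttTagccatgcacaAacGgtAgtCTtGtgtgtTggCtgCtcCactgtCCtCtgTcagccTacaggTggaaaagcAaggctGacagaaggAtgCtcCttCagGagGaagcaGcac
Rps27l: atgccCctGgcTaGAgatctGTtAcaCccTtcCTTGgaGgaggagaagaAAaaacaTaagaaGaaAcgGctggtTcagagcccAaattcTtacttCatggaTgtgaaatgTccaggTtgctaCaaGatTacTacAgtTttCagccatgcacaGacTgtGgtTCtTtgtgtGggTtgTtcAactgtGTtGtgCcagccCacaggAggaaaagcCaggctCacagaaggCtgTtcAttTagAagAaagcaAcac
The differing bases are spread along the whole coding sequence. Within a library there were 0.687 to 0.740 Rps27l counts per Rps27 count in WT PBS and 1.05 to 1.20 in WT cisplatin, with 0.644 to 0.798 and 0.981 to 1.27 in HET. Rps27 held the higher count in every PBS library, and Rps27l in every cisplatin library but HET cisplatin 6, at 0.981. Mean log2 ratios differed by 0.66 in WT and 0.75 in HET (two-sided exact permutation test, p = 0.000155 and 0.000311, adjusted p = 0.000311 and 0.000373 over 12 tests). Like the other pairs, this one was chosen after its values had been seen, which the adjustment does not cover. Both p-values are the smallest these group sizes allow. Per length the core gene stayed ahead, at 1187 ± 43 TPM (SD, n = 8) for Rps27 against 604.6 ± 38.4 TPM (SD, n = 8) for Rps27l in WT cisplatin, from 648 ± 32 TPM and 207 ± 11 TPM (SD, n = 8 each) in WT PBS.

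Of the 8 tested paralogs, 3 were higher, 3 lower and 2 did not pass in WT, and 2, 2 and 4 did so in HET. Both splits lie near those of all tested genes, of which 33.6% were higher and 29.6% lower in WT and 31% and 28.0% in HET. Rpl22l1 (ENSMUSG00000039221, chr3:28805436-28807424, plus strand), the paralog of the RNA-binding protein Rpl22, read 27.9 to 36.2 CPM (median 32.3) in WT PBS and 16.9 to 22.1 CPM (median 18.8) in WT cisplatin. In HET mice it read 29.4 to 38.1 CPM (median 33.1) under PBS and 14.8 to 22.5 CPM (median 19.2) under cisplatin. The groups did not overlap, and its log2 fold changes were −0.76 (adjusted p = 2.25e-10, SE 0.07) in WT and −0.81 (adjusted p = 1.36e-10, SE 0.08) in HET, and −0.37 and −0.41 with library totals. Rpl22 itself read 68.7 to 80.3 CPM (median 73.5) in WT PBS and 75.4 to 89.2 CPM (median 78.8) in WT cisplatin, at log2 fold changes of 0.11 (adjusted p = 0.0162, SE 0.04) and 0.05 (adjusted p = 0.275, SE 0.04). Its WT call was lost under RLE scaling (adjusted p = 0.0506), with no low-count filter (0.0564), among mice numbered in the 600s (0.169) and without WT cisplatin 4 (0.052). The median of Rpl22l1 counts per Rpl22 count went from 0.432 to 0.236 in WT and from 0.431 to 0.244 in HET, without overlap in either. Mean log2 ratios differed by −0.87 in both genotypes (two-sided exact permutation test, p = 0.000155 and 0.000311, adjusted p = 0.000311 and 0.000373 over 12 tests). The coding sequences of that pair are 67.5% identical.

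Rpl36al, the autosomal paralog of X-linked Rpl36a, did not pass the test, at 60.5 to 73.5 CPM (median 67.8) in WT PBS and 56.9 to 67.2 CPM (median 63.8) in WT cisplatin and a log2 fold change of −0.10 (adjusted p = 0.0729, SE 0.05). It was called lower in WT by DESeq2 (−0.11, adjusted p = 0.0339), limma voom (−0.10, 0.0376) and under RLE scaling (−0.11, 0.0390). Rpl36a read 23.1 to 29 CPM (median 25.5) in WT PBS and 37.1 to 44 CPM (median 41.2) in WT cisplatin and rose by 0.67 (adjusted p = 5.01e-13, SE 0.05) in WT and 0.78 (adjusted p = 5.23e-14, SE 0.05) in HET. The 2 coding sequences are 87.7% identical with a longest identical stretch of 24 bases, and 93.5% of the Rpl36a values and 96.8% of the Rpl36al values were fractional. How reads were split between them is uncertain. The median of Rpl36al counts per Rpl36a count went from 2.58 to 1.56 in WT and from 2.71 to 1.54 in HET without overlap (exact permutation test, p = 0.000155 and 0.000311).

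Rpl3l, the paralog of Rpl3 that is known from heart and skeletal muscle, was close to the floor of detection at 1.23 to 1.95 CPM (median 1.69) in WT PBS and 0.348 to 0.868 CPM (median 0.519) in WT cisplatin. Its log2 fold changes were −1.60 (adjusted p = 6.04e-05, SE 0.32) in WT and −0.89 (adjusted p = 0.016, SE 0.31) in HET. The HET groups overlapped, and the HET call was lost with library totals (adjusted p = 0.135), with only the HET groups fitted (0.0694), among mice numbered in the 600s (0.0859) and without the 5 libraries that go against their label (0.127). Rpl3l counts per Rpl3 count went from a median of 0.00653 to 0.00246 in WT, without overlap, and from 0.00549 to 0.00228 in HET, with overlap. The two-sided exact permutation test gave p = 0.000155 in WT and 0.0339 in HET (adjusted p = 0.000311 and 0.0339). Rpl7l1 read 50.5 to 63.2 CPM (median 55.4) in WT PBS and 40.6 to 56.3 CPM (median 47.2) in WT cisplatin, with log2 fold changes of −0.22 (adjusted p = 0.00308, SE 0.06) and −0.14 (adjusted p = 0.0574, SE 0.06) under TMM but 0.18 and 0.26 with library totals. In HET it was called lower by DESeq2 (adjusted p = 0.0393), by limma voom (0.0375) and under RLE scaling (0.0411). The median of Rpl7l1 counts per Rpl7 count went from 0.227 to 0.178 in WT, without overlap. In HET it went from 0.225 to 0.187, with overlap (two-sided exact permutation test, p = 0.000155 in WT and 0.000622 in HET, adjusted p = 0.000311 and 0.000678). Rps4l, annotated as a transcribed processed pseudogene, rose by 0.61 (adjusted p = 2.2e-06, SE 0.10) and 0.50 (adjusted p = 6.52e-05, SE 0.10). Rpl37rt stood at 0.68 (adjusted p = 0.0486, SE 0.30) and 0.36 (adjusted p = 0.315, SE 0.31), its WT call being lost without WT cisplatin 3, 4, 5 or 7 or without WT PBS 1, 2, 4, 6 or 7 (adjusted p = 0.058 to 0.106), under limma voom (0.0924), under RLE scaling (0.0555) and in 7 other alternatives (0.0654 to 0.387). Rps27rt, whose coding sequence is identical to that of Rps27 over all 252 bases, stood at −0.02 (adjusted p = 0.961, SE 0.31) and 0.53 (adjusted p = 0.142, SE 0.31) and cannot be told apart from its partner where reads are shared.

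The 5 other symbols were all close to the floor. Rps23rg1 read 1.34 to 3.43 CPM (median 2.16) in WT PBS and 0.609 to 1.19 CPM (median 0.771) in WT cisplatin with log2 fold changes of −1.37 (adjusted p = 1.9e-05, SE 0.25) in WT and −0.99 (adjusted p = 0.00154, SE 0.26) in HET, where the call was lost on log2(TPM + 1) (0.102 by limma). Rps3a3 was at 0.176 to 0.678 CPM (median 0.496) in WT PBS and 0.0943 to 0.886 CPM (median 0.309) in WT cisplatin and did not pass at a log2 fold change of −0.42 (adjusted p = 0.279, SE 0.33), although limma voom called it lower (−0.72, adjusted p = 0.0455). Both had only fractional counts. The 6 members that did not pass the filter were Rps3a2, Rpl6l, Rpl32l and Rps12l1, annotated as processed pseudogenes, with Rpl39l and Rpl10l. Their deposited counts summed over 31 libraries ran from 0 for Rpl10l and Rps12l1 to 158 for Rpl32l.

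Levels per length varied widely within the family. In WT PBS the group means of the 77 core members ran from 5.35 TPM for Rpl12 to 648 TPM for Rps27, with a median of 187 TPM, and 69 stood above 100 TPM. In WT cisplatin the range was 13.7 to 1187 TPM with a median of 332 TPM, and the same 2 genes held the ends. The HET medians were 185 TPM and 340.1 TPM. The low levels of Rpl12 and of Rpl5 (18 ± 1.7 TPM, SD, n = 8, in WT PBS) stand beside fractional counts in 100% and 93.5% of libraries.

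No member differed between genotypes past the threshold. Under PBS, 0 of the 87 members passed the test of HET against WT by edgeR, with 0 at an unadjusted p under 0.05 and a background of 0% of all tested genes, and DESeq2 and limma voom called 0 as well. Under cisplatin 0 passed, with 3 at an unadjusted p under 0.05 and a background of 0.00519%: Rps27rt (log2 difference HET minus WT 0.66, SE 0.30), Rpl36al (0.10, SE 0.05) and Rpl7l1 (0.13, SE 0.06), each at an adjusted p of 0.886 by edgeR. The interaction, the difference between the HET and WT responses, called 0 members by all 3 tools, with 0 at an unadjusted p under 0.05 and a background of 0%. Its smallest p belonged to Rpl3l (0.71, SE 0.45, adjusted p = 0.939). For the core members the estimated differences between genotypes lay between −0.07 and 0.08 under PBS and between −0.07 and 0.09 under cisplatin on the log2 scale. The estimate for Rps19 was 0.03 (SE 0.04, adjusted p = 0.941 by edgeR) for HET minus WT under cisplatin.

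Genes tied to the ribosome but outside the rule are given beside the family. The counts of each list below stand against 33.6% higher and 29.6% lower of all tested genes in WT and 31% and 28.0% in HET under TMM, and against 61.4% and 14.9%, and 62.2% and 12.5%, with library totals. Fau, which encodes a small subunit protein fused to a ubiquitin-like protein, read 139 to 153 CPM (median 142) in WT PBS and 147 to 168 CPM (median 153) in WT cisplatin. Its log2 fold change was 0.12 (adjusted p = 0.0231, SE 0.05) in WT, at the low end of the family, and 0.52 with library totals. The call was lost under DESeq2 and under RLE scaling. Rack1, a scaffold protein of the small subunit whose mRNA also carries a TOP tract, rose by 0.35 (adjusted p = 3.98e-07, SE 0.05). Of the 24 other TOP mRNAs tested, which include Fau and Rack1, 4 were higher and 9 lower in both genotypes at medians of −0.03 and −0.01, but 19 and 20 were higher and 3 and 2 lower with library totals. Eef2, the elongation factor that moves the ribosome along the mRNA, read 1349 to 1574 CPM (median 1439) in WT PBS and 912 to 1083 CPM (median 969.6) in WT cisplatin with a log2 fold change of −0.57 (adjusted p = 4.29e-11, SE 0.05), and of −0.18 with library totals. Eif4b, a factor of initiation, had a log2 fold change of −0.77 (adjusted p = 1.52e-13, SE 0.05), and of −0.37 with library totals.

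Mitochondrial ribosomal proteins, which build the separate ribosome of that organelle, did not follow. Under TMM 5 of 78 were higher and 68 lower in WT, with 5 and 63 in HET, at medians of −0.43 and −0.35, while library totals gave 17 higher and 27 lower in WT and 29 and 18 in HET. Their summed share of counts was 0.204% to 0.219% in WT PBS and 0.188% to 0.235% in WT cisplatin, with overlap and ratios of 0.965 in WT and 1.02 in HET. Mrpl44 fell by 1.02 (adjusted p = 2.54e-13, SE 0.07), and Mrpl33 was the exception that rose most, from 21.1 to 25.2 CPM (median 22.8) in WT PBS to 47.8 to 69.3 CPM (median 58.1) in WT cisplatin.

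Ribosome biogenesis genes were more often higher than lower, also beside the background of all genes. Of 55 ribosome biogenesis genes, 33 were higher and 10 lower in WT (33.6% and 29.6% of all tested genes) and 33 and 8 in HET (31% and 28.0%), at medians of 0.21 and 0.23, with 49 higher in each and 2 and 1 lower with library totals (61.4% and 62.2% of all genes higher). Eif6, which keeps the new large subunit from joining the small one, read 36.1 to 50.5 CPM (median 39.9) in WT PBS and 88.4 to 119.8 CPM (median 99.96) in WT cisplatin and rose by 1.25 (adjusted p = 8.69e-13, SE 0.09). Brix1, a factor of large subunit assembly, rose by 0.75 (adjusted p = 3.52e-10, SE 0.07), and Aamp fell by 0.51 (adjusted p = 1.68e-10, SE 0.05). Of 15 genes of RNA polymerase I and its factors, 4 were higher and 3 lower in WT and 5 and 4 in HET (14 and 13 higher and 0 lower with library totals). Under TMM these shares are near or below the background. Rrn3, which recruits the polymerase to ribosomal DNA, stood at 0.51 (adjusted p = 4.06e-10, SE 0.05) in WT.

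Genes that act on ribosomes or on TOP mRNAs were more often lower than higher under TMM. Among all tested genes 29.6% were lower in WT and 28.0% in HET. With library totals these genes were more often higher, and so were 61.4% of all tested genes in WT and 62.2% in HET. Of 21 tested genes of ribosome quality control, 4 were higher and 13 lower in WT and 3 and 10 in HET, against 14 higher and 3 lower in WT with library totals. Map3k20, the kinase that senses stalled and collided ribosomes, was the largest rise, from 24.5 to 27.7 CPM (median 26.9) in WT PBS to 67.9 to 91.2 CPM (median 86.8) in WT cisplatin, a log2 fold change of 1.68 (adjusted p = 3.35e-21, SE 0.06). Of 22 genes of mTOR and TOP control, 6 were higher and 10 lower in WT and 4 and 11 in HET, and 14 and 3 with library totals in WT. Mtor read 358 to 488 CPM (median 429) in WT PBS and 163 to 213 CPM (median 175) in WT cisplatin with a log2 fold change of −1.23 (adjusted p = 2.42e-14, SE 0.08), and of −0.84 with library totals. Eif4ebp1, the inhibitor of cap-dependent initiation that mTOR switches off, rose by 1.46 (adjusted p = 2.32e-10, SE 0.14).

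Of 13 tested genes around p53 and Mdm2, 9 were higher, 2 lower and 2 did not pass in each genotype, against 33.6% higher and 29.6% lower of all tested genes in WT. The list holds 5 members of the family, Rpl5, Rpl11, Rpl23, Rps27 and Rps27l, so its count is not separate from the family's. Cdkn1a, the cell cycle inhibitor p21, went from 2.6 to 26.4 CPM (median 7.23) in WT PBS to 364 to 715 CPM (median 675) in WT cisplatin. Ccng1 and Mdm2, both p53 targets, rose by 2.32 (adjusted p = 1.57e-23, SE 0.06) and 2.09 (adjusted p = 1.01e-16, SE 0.11).

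**Figure D5:**
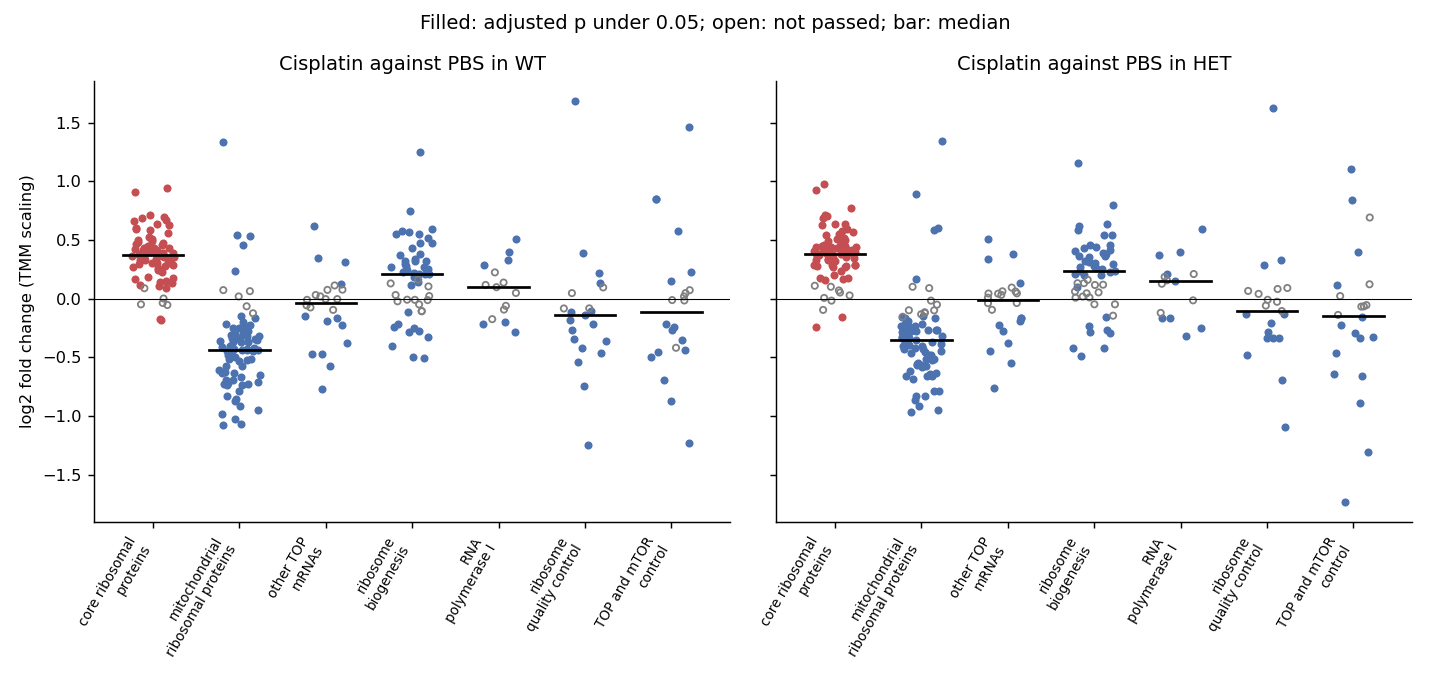
Log2 fold changes of cisplatin against PBS (TMM scaling) in WT, left, and HET, right, for the core members and 6 lists of related genes. Filled points passed the adjusted threshold of 0.05, open points did not, and bars are medians, at 0.38 for the core members and −0.43 (WT) and −0.35 (HET) for the mitochondrial ribosomal proteins.

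Markers of several kidney cell types moved with treatment as well. Their counts of calls stand against 33.6% higher and 29.6% lower of all tested genes in WT and 31% and 28.0% in HET. For distal and collecting duct markers and for cycling markers the counts of calls lie near or below these shares. All 12 proximal tubule markers were lower in both genotypes, and their summed level went from between 24455 and 28196 CPM in the PBS libraries to between 1398 and 8335 CPM in the cisplatin libraries, the highest 2 being WT cisplatin 6 and HET cisplatin 6. All 8 markers of injured tubule were higher, at 462 to 711 CPM under PBS and 2618 to 6666 CPM under cisplatin. Of 9 macrophage markers 8 were higher and 1 lower in WT and 7 and 1 in HET (93.3 to 124 CPM under PBS and 44.9 to 284 CPM under cisplatin). Fibroblast markers were higher in 4 of 5 in WT and 5 of 5 in HET (197 to 341 CPM and 192 to 767 CPM), and all 5 endothelial markers (379 to 440.1 CPM and 264 to 316 CPM) and all 5 erythroid markers (293 to 1825 CPM and 0.032 to 27.3 CPM) were lower. Of 8 tested lymphocyte markers 6 were lower in WT and 4 in HET (18 to 30.9 CPM and 6.69 to 21.3 CPM), and of 5 cycling markers 1 was higher in each (12 to 33.3 CPM and 8.13 to 38.7 CPM). Of 4 thick ascending limb markers 3 were lower and 1 higher in each genotype (6299 to 7364 CPM and 909.7 to 3646 CPM), of 6 distal and collecting duct markers 2 were lower and 1 higher in each (1427 to 1748 CPM and 747 to 1105 CPM), and of 3 tested neutrophil markers 0 passed in WT and 3 were lower in HET (0.866 to 17.4 CPM and 1.23 to 4.2 CPM). No marker was at 0 counts across a whole group. The part of these shifts, and of depth, which was lower in the cisplatin libraries, in the rise of the ribosomal protein mRNAs was not tested.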

How the data were processed

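Whole-kidney mRNA libraries of 31 male mice were made from RNA with a KAPA mRNA HyperPrep kit, per the labels' protocols; each title carries its own animal number, so each library was taken as 1 mouse. The table deposited by the authors gives, for 55487 genes, expected counts, TPM and FPKM per library; the FPKM values deposited by the authors were not used. The submitters' processing notes name fastp, STAR, featureCounts and the GRCm38 and mm10 builds, without versions; no source used here says which tool gave the counts that are not whole (12.5% of values), or the strandedness. The deposited TPM were used for levels per length and as an alternative. The members and gene lists were chosen with earlier results of these data known.

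Counts were rounded, filtered with filterByExpr by group (19268 genes kept), scaled by TMM and fitted in edgeR 4.0.16 (R 4.3.3) with glmQLFit and glmQLFTest, as 1 model of 4 group means with Benjamini-Hochberg adjustment over all tested genes and a threshold of 0.05. Within each genotype cisplatin was set against PBS, within each treatment HET against WT, and the interaction was tested too. The SE was the log2 fold change divided by the square root of its F value. Alternatives used DESeq2 1.42.0, limma 3.58.1 (voom with quality weights, and log2(TPM + 1)), other scalings, filters and sets of libraries. Ratios of 2 genes within a library, with 0.5 added to each count, were compared by exact permutation tests. Members named are the tested paralogs, the 10 core members with the highest and the 10 with the lowest log2 fold change in each genotype, the 5S RNP and stalk proteins, Rpsa, Rack1, Fau, the 3 smallest p-values of each genotype comparison and up to 4 genes of each related list; 2 genes taken by this rule are not reported here. Other genes named, Rps6, Rpl15 and Rpl23 among them, were chosen after their values were seen. The edgeR fit was tested on simulated counts of the WT groups, in which a small set of genes changed, equally up and down. That simulation held no change in most genes, so it does not bear on the choice of scaling. Gene models are GENCODE M21 and promoter sequences RefSeq (GRCm38.p6).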

Additional observations from a re-analysis of the deposited data

Results flagged for a closer look

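In 6 of 152 groups of 7 or 8 libraries (3.95%), 1 library lay farther from its neighbours than Dixon's 95% limit allows, and chance alone flags about 1 group in 20. The groups checked were the 4 groups for 36 members and 8 groups of summed shares. WT cisplatin 6 was the highest library of its group for Rpl3, at 276 CPM with the next at 238 CPM, and for Rpl7a, at 366 CPM with the next at 289.8 CPM. WT PBS 7 was the lowest of its group for the share of TPM held by the family, at 1.6% with the next at 1.70%, and the highest for Rpl35a, at 92.1 CPM with the next at 84.3 CPM. HET PBS 7 was the lowest of its group for Rpl22, at 71.1 CPM with the next at 75.9 CPM. WT PBS 6, which reads Nbl1 against its label, was the highest of its group for Rps18, at 163 CPM with the next at 148 CPM.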

How the results depend on the processing

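No paired analysis was possible because the labels give each mouse its own number and no replicate numbers shared between groups. The number of members called was 72 to 76 in HET and 76 to 79 in WT with each library left out in turn, and 0 for genotype and interaction under each alternative run. Scaling to the summed core members left 48 members called in HET (22 higher, 26 lower) and 53 in WT (27 and 26), since it removes the shared rise. The ratio of the summed share was 1.6 in WT without mitochondrial genes, and 1.77 in WT and 1.82 in HET on TPM. Of the comparisons of single named members with their alternatives, 1974 kept direction and side of the threshold, 102 changed direction, 67 gained and 60 lost the call. Of the changes of direction, 13 each came with library totals, totals without mitochondrial genes and members, and scaling to the core members, 14 with log2(TPM + 1) and 26 with single libraries left out. The cause was not tested.

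With library totals the WT log2 fold changes were 0.36 for Rpl28, 0.30 for Rpl36al, 0.37 for Rps27rt, 0.22 for Rpl5, 0.21 for Rpl3, 0.34 for Rpl35a, 0.34 for Rpl7a and 0.18 for Rpl7l1, and those in HET 0.39 for Rpl28, 0.25 for Rpl5, 0.16 for Rpl3, 0.31 for Rpl35a and 0.26 for Rpl7l1. With totals that leave out mitochondrial genes and the members they were, in the same order, 0.29, 0.23, 0.30, 0.16, 0.14, 0.27, 0.28 and 0.11 in WT and 0.33, 0.19, 0.11, 0.25 and 0.20 in HET. On log2(TPM + 1) they were 0.42, 0.34, 0.37, 0.49, 0.25, 0.37, 0.39 and 0.28 in WT and 0.43, 0.49, 0.23, 0.37 and 0.42 in HET, with 0.0114 for Rps3a3 in HET. Scaled to the core members, the WT values were −0.27 for Rps9, −0.25 for Rpl22, −0.35 for Rpl10a, −0.0471 for Rpl11 and −0.27 for Rpl27, and the HET values −0.29, −0.31, −0.34, −0.0153 and −0.25, with −0.36 for Rpl36al, −0.35 for Rpl7a and −0.00197 for Rpl37rt.

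Members close to 0 changed sign without a call. Rpl10a in WT, Rpl36al in HET and Rpl7a in HET were, in that order, at −0.0179, −0.0101 and −0.00831 under DESeq2, at −0.0181, −0.00968 and −0.00821 under RLE scaling, at −0.0271, −0.0106 and −0.0187 among mice numbered in the 600s, at −0.0142, −0.00474 and −0.0133 with number range as a covariate, and at −0.0117, −0.0154 and −0.0196 without WT cisplatin 6 and HET cisplatin 6, an alternative chosen after seeing the data. Under voom Rps27rt in WT was at 0.14, Rpl10a at −0.00861 in WT and −0.00405 in HET, and Rpl36al in HET at −0.00183. Rps27rt in WT was at 0.0141 with the covariate, Rpl10a in WT at −0.00156 with no low-count filter, and Rpl28 in HET at 0.0221 without the 5 libraries that go against their label and at 0.0222 without these and WT cisplatin 6, a set chosen after seeing the data. With single libraries left out, Rpl28 in HET ran from −0.0341 to 0.00603, Rpl10a from −0.000345 to 0.0597 in HET and −0.0242 to 0.0206 in WT, Rpl36al in HET from −0.0153 to 0.0252, Rpl7a in HET from −0.0194 to 0.0244 and Rps27rt in WT from −0.16 to 0.14.

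The planned fits that ended or gave a call of Rpl22, Rps9, Rpl37rt, Rpl35a, Rpl7a, Rpl36al, Rpl7l1 and Rps3a3 by another tool or RLE scaling stand beside those members. Rpl7l1 in HET also passed with number range as a covariate (adjusted p = 0.0320 by edgeR). With single libraries left out, calls were gained in HET by Rpl27 without HET cisplatin 1, by Rpl35a without HET cisplatin 2 and by Rpl7l1 without HET cisplatin 6 or 7 or HET PBS 2, 3 or 7, and in WT by Rpl27 without WT PBS 6, by Rpl36al without WT cisplatin 3 or WT PBS 1 or 3 and by Rps3a3 and Rpl7a without WT cisplatin 6 (adjusted p = 0.0244 to 0.0494). Counts called in related lists moved by over 1.5 times with scaling: the other TOP mRNAs from 13 to 22 with library totals in each genotype, RNA polymerase I genes in WT from 7 to 14, and mitochondrial ribosomal proteins in WT from 73 to 44. Depth limits Rpl3l, Rps23rg1, Rps3a3, Rps27rt and Rpl37rt, whose WT PBS means were 0.486 to 2.17 CPM.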
